A study of Homo sapiens with 6 samples.

Results

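The 9 genes described here encode T-box transcription factors: TBX2, TBX3, TBX4, TBX5, TBX1, TBX18, TBX20, EOMES and TBR1. They were picked by symbol from the 60664 genes counted in the study, with TBX2 as the starting point because its level differed between the groups of these same libraries. The change of TBX2, and of the other members in the same comparison, is therefore given as a description with no p-value. Where a member is said to be called at a threshold, that is description too and no test of it. The material was D283 Med, an established human line of Group 3 medulloblastoma, a cerebellar tumour of childhood, with an amplified MYC gene. Every culture received a GapmeR, an LNA-modified antisense oligonucleotide by which RNase H cuts the RNA it pairs with. In the knockdown (KD) group of 3 libraries its target was lncMB3, a long non-coding RNA, and in the SCR group of 3 libraries it had a scrambled sequence. Both groups are the same line with the same amplified MYC, and loss of lncMB3 cannot be told apart from other effects of that GapmeR. The level of lncMB3 itself was not analysed here. Whether the 3 libraries of a group are separate cultures is not stated in the labels. The p-values therefore set the difference between groups only against the variation between these libraries, and that variation may be technical. The gene lists used below were chosen with earlier results of these data known, so their p-values do not come from unselected genes. In such bulk RNA, fewer cells of a type and less RNA per cell cannot be told apart.

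T-box factors share a DNA-binding domain, the T-box, that recognises short sites in the regulatory DNA of developmental genes. TBX2 and TBX3 act mostly as repressors, TBX5 mostly as an activator, and several members are dosage-sensitive in human development. In the developing eye and limb of chick and mouse, Tbx2 and Tbx3 lie downstream of BMP signals. In the cerebellum of the mouse, Eomes marks unipolar brush cells and Tbr1 marks glutamatergic neurons of the deep nuclei.

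Polyadenylated RNA was counted per gene, with total counts of 7765826 to 19989654 in the KD libraries and 17072573 to 20035834 in the SCR libraries. KD library 1 is the shallowest and gives the least precise counts. Levels are given as CPM, the count relative to the library size after TMM scaling. All 7 Group 3 markers, MYC and OTX2 among them, were above 1 CPM. In KD 1 of them was called higher and 4 lower at an adjusted p under 0.05 by edgeR. Of all tested genes 15.9% were called higher and 15.9% lower, and nothing is read from the markers' count. The summed level of the Group 3 markers was 2703 to 2785 CPM in KD and 2854 to 3093 CPM in SCR. Of the 5 immune markers 4 were under 1 CPM in every library, with CD3E and NKG7 at 0 counts, and so were 3 of 4 cardiac, 4 of 6 melanocyte and 2 of 3 endothelial markers, with NPPA and MLANA at 0. Summed immune markers were at 0.650 to 2.35 CPM in KD and 1.40 to 2.05 CPM in SCR, and summed cardiac markers at 0.260 to 1.15 CPM in KD and 0.644 to 0.685 CPM in SCR. Summed melanocyte markers, mostly MITF, were at 12.9 to 15.6 CPM in KD and 13.6 to 15.3 CPM in SCR, and summed endothelial markers at 0.886 to 1.82 CPM in KD and 1.47 to 2.52 CPM in SCR. Summed mesenchymal markers were at 27.4 to 32.8 CPM in KD and 35.2 to 38.8 CPM in SCR, and summed epithelial markers, nearly all KRT8, at 30.2 to 39.0 CPM in KD and 48.5 to 62.9 CPM in SCR. Of these lists COL1A2, LUM, EPCAM and KRT18 were under 1 CPM in every library. The mesenchymal, epithelial and Group 3 sums were lower in every KD library than in any SCR library. Their part in the T-box values was not tested.

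Promoters of TBR1 and TBX20 are shown because these are the called members with a promoter entry, and they differ widely in base composition. TBX2 and TBX3 had no entry, so their promoters were neither shown nor searched. Each runs from 250 bases before to 50 bases after the annotated start site (RefSeq, GRCh38.p14), 5′ to 3′ on the gene's strand, with CpG dinucleotides in capitals. TBR1 lies at chr2:161416047-161416346 on the plus strand and TBX20 at chr7:35254051-35254350 on the minus strand.
TBR1: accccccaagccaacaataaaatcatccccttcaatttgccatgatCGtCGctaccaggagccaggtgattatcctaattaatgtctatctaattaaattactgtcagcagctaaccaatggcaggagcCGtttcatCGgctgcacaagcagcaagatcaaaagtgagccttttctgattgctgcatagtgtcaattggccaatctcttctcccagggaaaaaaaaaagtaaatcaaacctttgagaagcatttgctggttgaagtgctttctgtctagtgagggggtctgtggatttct
TBX20: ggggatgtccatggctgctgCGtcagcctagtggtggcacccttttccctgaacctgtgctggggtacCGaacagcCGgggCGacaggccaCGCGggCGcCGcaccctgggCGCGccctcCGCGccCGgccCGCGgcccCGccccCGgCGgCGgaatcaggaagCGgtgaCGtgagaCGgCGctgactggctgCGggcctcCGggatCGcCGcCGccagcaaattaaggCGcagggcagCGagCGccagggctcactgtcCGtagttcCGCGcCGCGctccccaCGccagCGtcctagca
The TBR1 promoter held 4 CpG dinucleotides at 43.3% G and C, and the TBX20 promoter 38 at 73.3%, where the median of 35116 RefSeq promoters was 14 CpG dinucleotides and 58.7%. Among the 7 members with an entry (TBR1, EOMES, TBX18, TBX20, TBX5, TBX4 and TBX1), TBR1 had the fewest CpG dinucleotides and TBX20 the most. The core of the T-box site, GGTGTGA on either strand, was not found in any of the 8 windows of these genes (TBX5 has 2), and 3.45% of all promoters held it. TAATCC, a site of the photoreceptor factors OTX2 and CRX, was not found either, with 6.36% of all promoters holding it. CACGTG, the E-box read by MYC, was found once, in TBX4 at chr17:61456238-61456537, and in 7.26% of all promoters. These are matches of letters only and say nothing of factor binding.

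TBX2, a repressor that holds back cell cycle inhibitors, was higher in KD. It stood at 65.3, 59.99 and 59.3 CPM in KD libraries 1 to 3, against 32.8, 28.0 and 30.3 CPM in SCR libraries 1 to 3. The groups did not overlap, and the lowest KD library was well above the highest SCR library, SCR library 1. The means were 61.5 ± 3.29 CPM in KD and 30.4 ± 2.41 CPM in SCR (SD, n = 3 each), a 2.02-fold higher level in KD (log2 change 1.01 ± 0.09, SE). Ordered by signed log2 change, with rises first, TBX2 stood at place 26 among 10990 genes with a mean of at least 5 CPM. Nothing is read from that place, because TBX2 was chosen on this change. The log2 change lay between 0.96 and 1.07 when any single library was left out. The ratio of TBX2 to TBX3 counts, which does not depend on how libraries are scaled, was 3.35, 4.55 and 3.80 in the KD libraries and 2.47, 2.0 and 1.82 in the SCR libraries.

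**Figure D1:**
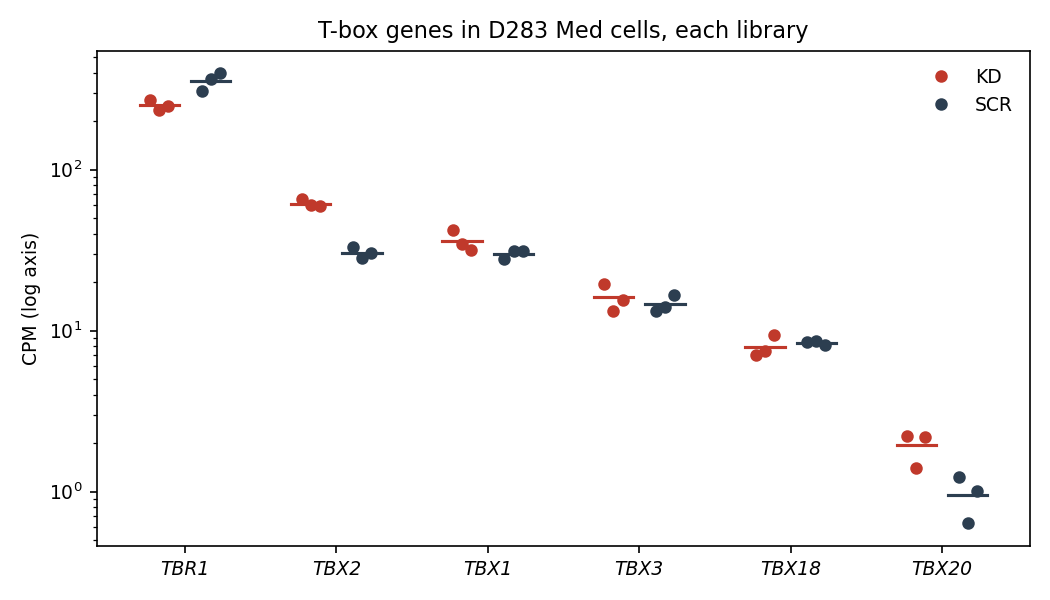
CPM of the 6 T-box genes that passed the low-count filter, on a log axis, in each KD library (left of each pair, red) and each SCR library (right, dark). Points are libraries and bars are group means. TBX2, TBX1 and TBX20 lie higher in every KD library, TBR1 lies lower, and TBX3 and TBX18 overlap.

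Of the 9 members 6 passed the low-count filter, and edgeR's quasi-likelihood test over 14673 genes called 3 of these at an adjusted p of 0.05, 2 higher in KD (TBX2 and TBX20) and 1 lower (TBR1). Of all tested genes 31.7% were called, 15.9% higher and 15.9% lower. Nothing is read from the members' count or from the call of TBX2, because TBX2 was chosen on this comparison. A call with at least a 2-fold higher level in KD was reached by 1 member, TBX2, and by 0.872% of all tested genes, of which likewise nothing is read. The 2 groups did not overlap in 4 members and in 46.0% of all tested genes. The lowest library value among these 6 genes was 0.636 CPM, that of TBX20 in SCR library 2.

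TBX3, the closest relative of TBX2 and itself a repressor, did not follow it. It had 19.5, 13.2 and 15.6 CPM in the KD libraries and 13.3, 14.0 and 16.7 CPM in the SCR libraries, so the groups overlapped. The log2 change was 0.10 ± 0.14 (SE), and it was -0.02 without KD library 1. The other 2 genes of this subfamily were barely counted or not counted. TBX4, a hindlimb factor, had 0, 1 and 2 counts in the KD libraries and 1, 0 and 0 counts in the SCR libraries. TBX5, a factor of the heart and forelimb and of the dorsal retina in chick and mouse, had 0 counts in all 6 libraries. A count of 0 allows up to 0.390, 0.156 and 0.156 CPM in the KD libraries and 0.176, 0.147 and 0.168 CPM in the SCR libraries, taking 3 counts as the limit and counting error only.

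These 4 genes sit as neighbouring pairs in the genome (GRCh38). TBX2 (chromosome 17, 61399896 to 61409466) is 42.9 kb from TBX4 (61452404 to 61485110), and TBX5 (chromosome 12, 114353931 to 114408442) is 262 kb from TBX3 (114670254 to 114684164). In each pair TBX2 or TBX3 was expressed while the neighbour was at or below the limit of detection.

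In the subfamily of TBX1, which is deleted in DiGeorge syndrome, TBX1 and TBX18 were measured well and TBX20 from few counts. TBX1 had 42.3, 34.4 and 31.6 CPM in the KD libraries and 27.7, 31.2 and 31.2 CPM in the SCR libraries. Every KD library was above every SCR library, by little for KD library 3, and the log2 change of 0.25 ± 0.11 (SE) was not among those called. It was 0.14 without KD library 1. At its 3′ end, 280 annotated exon bases (7.82% of its exon length) overlap GNB1L, a gene on the opposite strand that was 1.32-fold higher in KD (adjusted p = 0.0268, edgeR's quasi-likelihood test). GNB1L was at 11.8 ± 1.03 CPM in KD and 9.09 ± 0.877 CPM in SCR (SD, n = 3 each), and its call was lost with upper-quartile scaling, with DESeq2 and without SCR library 2, SCR library 3, KD library 2 or KD library 3 (edgeR adjusted p up to 0.137). Whether counting used strand is not stated, so reads of the shared bases cannot be assigned with certainty.

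TBX18, a factor of the epicardium and sinus node, had 7.02, 7.46 and 9.38 CPM in the KD libraries and 8.43, 8.61 and 8.10 CPM in the SCR libraries. The SCR values fell inside the KD range, and the log2 change was -0.05 ± 0.14 (SE), or 0.01 without KD library 1 and 0.02 without KD library 2. TBX20, a factor of the heart and, in the mouse, of hindbrain motor neurons, had 17, 27 and 42 counts in the KD libraries and 21, 13 and 18 counts in the SCR libraries. After scaling this was 2.21, 1.41 and 2.19 CPM in KD and 1.23, 0.636 and 1.01 CPM in SCR. The groups did not overlap, but the lowest KD library was close to the highest SCR library. The log2 change was 0.998 ± 0.33 (SE). TBX20 was not called by DESeq2, at an adjusted p of 0.01, or when SCR library 2, SCR library 3, KD library 1 or KD library 3 was left out.

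TBR1, a factor of glutamatergic neurons, had the highest level per kb of the members in both groups. It had 271, 235 and 248 CPM in the KD libraries and 306, 365 and 396 CPM in the SCR libraries. All KD libraries were below all SCR libraries, and SCR library 1 lay nearest to them. The means were 251 ± 18.3 CPM in KD and 356 ± 46.1 CPM in SCR (SD, n = 3 each), and the level was 1.42-fold lower in KD (log2 change -0.50 ± 0.10, SE). The log2 change was -0.42 without SCR library 3 and -0.60 without SCR library 1. Its annotated exons share 385 bases (4.01%) with SLC4A10 on the same strand, which stood at 1.21 ± 0.516 CPM in KD and 1.44 ± 0.114 CPM in SCR. The non-coding gene ENSG00000251621, which overlaps the 3′ end of TBR1 on the same strand, was at 0.530 ± 0.124 CPM in KD and 0.473 ± 0.0839 CPM in SCR. EOMES, the closest relative of TBR1, had 0, 4 and 4 counts in the KD libraries and 1, 2 and 4 counts in the SCR libraries, too few for a fold change.

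Set per kilobase of annotated exon, the order of mean levels was not the same in the 2 groups. The pairs that changed places, TBX2 with TBX1 and TBX20 with TBX18, were within their spread in KD. That length merges the exons of all annotated transcripts of a gene. It was 9600 bases for TBR1, 6029 for TBX2, 3580 for TBX1 and 1875 for TBX20. The transcripts in use may be shorter, which was not tested. Orders, percentiles, shares of the family sum and ratios between genes depend on these lengths. The change of a single gene between groups does not. In KD cells TBR1 came first at 26.1 ± 1.91 CPM per kb (SD, n = 3), followed by TBX2 at 10.2 ± 0.546 and TBX1 at 10.1 ± 1.54, which did not differ beyond their spread. In SCR cells TBR1 was at 37.0 ± 4.80 CPM per kb, then TBX1 at 8.39 ± 0.551 and then TBX2 at 5.04 ± 0.400, apart by more than their spread. TBX3 followed at 2.71 ± 0.536 CPM per kb in KD and 2.46 ± 0.304 in SCR. The lowest measured pair was TBX20 at 1.03 ± 0.244 and TBX18 at 0.939 ± 0.148 CPM per kb in KD, within their spread, and TBX20 at 0.510 ± 0.160 and TBX18 at 0.989 ± 0.0302 in SCR. Among tested genes TBR1 was at percentile 88.7 of the level per kb in KD and 93.1 in SCR, and TBX2 at percentile 71.8 in KD and 54.8 in SCR.

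**Figure D2:**
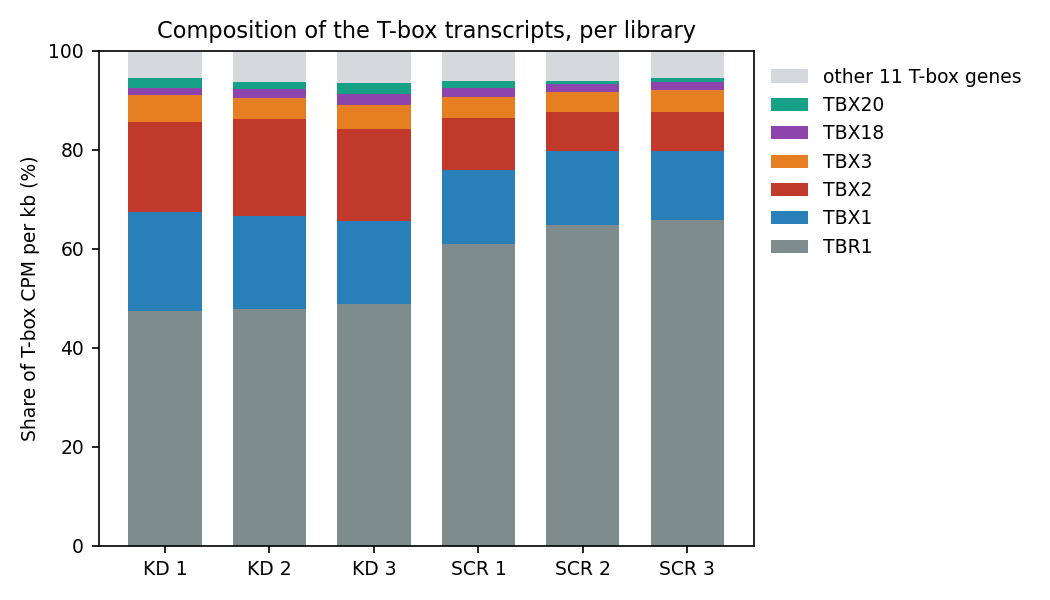
Share of the summed CPM per kb of all 17 T-box genes taken by each of 6 genes and by the other 11 together, in percent, for 3 KD libraries (left) and 3 SCR libraries (right). TBR1 takes 47.5 to 48.8% in KD and 61.1 to 65.8% in SCR, and TBX2 takes 18.2 to 19.5% in KD and 7.94 to 10.4% in SCR.

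The sum over the whole T-box family of 17 genes was 54.4 ± 4.36 CPM per kb in KD and 57.8 ± 5.36 CPM per kb in SCR (SD, n = 3 each), with overlapping libraries. Within it the makeup differed, as the plot of shares per library shows. TBR1 took 47.5%, 47.8% and 48.8% in the KD libraries and 61.1%, 64.8% and 65.8% in the SCR libraries. TBX2 took 18.2%, 19.5% and 18.6% in the KD libraries and 10.4%, 7.94% and 8.02% in the SCR libraries. The ratio of TBR1 to TBX2 per kb was accordingly 2.56 ± 0.0925 in KD and 7.41 ± 1.35 in SCR (SD, n = 3 each). SCR library 1, at 5.84, was the SCR library nearest to KD. Nothing is read from the share of TBX2 or from this ratio, because TBX2 was chosen on its change.

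The rest of the T-box family was low or did not pass the test. Of the 8 other genes 4 were tested, and edgeR's quasi-likelihood test called 0 of them. An unadjusted p under 0.05 was found for 1, and DESeq2 and limma-voom called 0 as well. TBXT, TBX10 and TBX22 had 0 counts in every library. MGA, the T-box protein that also binds MAX, was the only one of these above 10 CPM, at 40.5 ± 6.42 CPM in KD and 38.0 ± 1.49 CPM in SCR (log2 change 0.09 ± 0.11, SE, n = 3 each, edgeR adjusted p = 0.567). TBX6, TBX19 and TBX21 stayed near 1 CPM, with log2 changes of -0.73 ± 0.37, -0.73 ± 0.32 and 0.70 ± 0.38 (SE). TBX6 was called when KD library 2 was left out (log2 change -1.28, edgeR adjusted p = 0.0426).

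**Figure D3:**
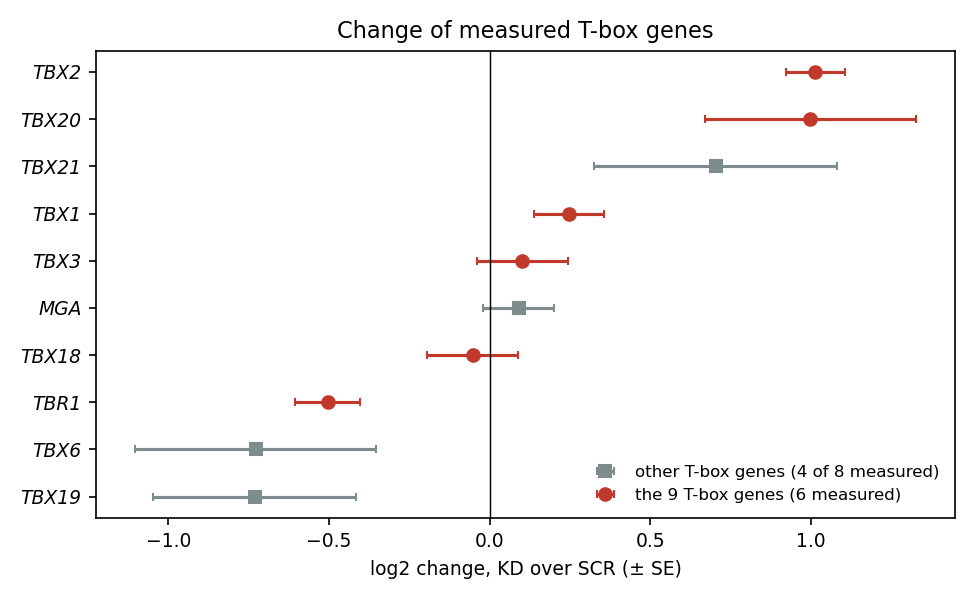
Log2 change, KD over SCR, of the 10 measured T-box genes, with SE from edgeR's quasi-likelihood fit as bars. Circles are the 6 measured genes of the 9 and squares the 4 measured other family genes; TBX2 is at 1.01, TBX20 at 0.998 and TBR1 at -0.50, and the errors of TBX20, TBX21, TBX6 and TBX19 are wide.

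Around TBX2 on chromosome 17 none of the other measured genes was called higher in KD. Of 16 annotated genes within 500 kb, 5 passed the low-count filter. TBX2-AS1, an antisense transcript whose span (61393456 to 61411555) covers all of TBX2, had 4.29, 3.23 and 2.81 CPM in the KD libraries and 4.16, 3.86 and 4.97 CPM in the SCR libraries. These overlapped (log2 change -0.38 ± 0.20, SE, n = 3 each, edgeR adjusted p = 0.167). In GENCODE release 29 its exons share 0 bases with those of TBX2. There were 15.2, 18.5 and 21.1 TBX2 counts per TBX2-AS1 count in the KD libraries, against 7.90, 7.25 and 6.10 in the SCR libraries. BCAS3, which ends 7.06 kb before TBX2 and encodes a cytoskeletal and autophagy protein, was lower in KD. It was at 7.80, 8.19 and 8.29 CPM in the KD libraries and 10.7, 10.1 and 12.3 CPM in the SCR libraries (log2 change -0.44 ± 0.13, SE, edgeR adjusted p = 0.0187). That call was lost without SCR library 3 (adjusted p = 0.0932) and without KD library 1 (adjusted p = 0.0528). BRIP1, a helicase of DNA repair, was at 44.3 ± 3.40 CPM in KD and 50.3 ± 1.49 CPM in SCR (edgeR adjusted p = 0.126, n = 3 each), and was called with upper-quartile scaling (adjusted p = 0.0461). INTS2, an Integrator subunit, was at 55.3 ± 7.32 CPM in KD and 49.1 ± 1.86 CPM in SCR (edgeR adjusted p = 0.224, n = 3 each), and was called without KD library 2 (adjusted p = 0.028). The pseudogene RPL23AP74 was near 1 CPM (edgeR adjusted p = 0.714).

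**Figure D4:**
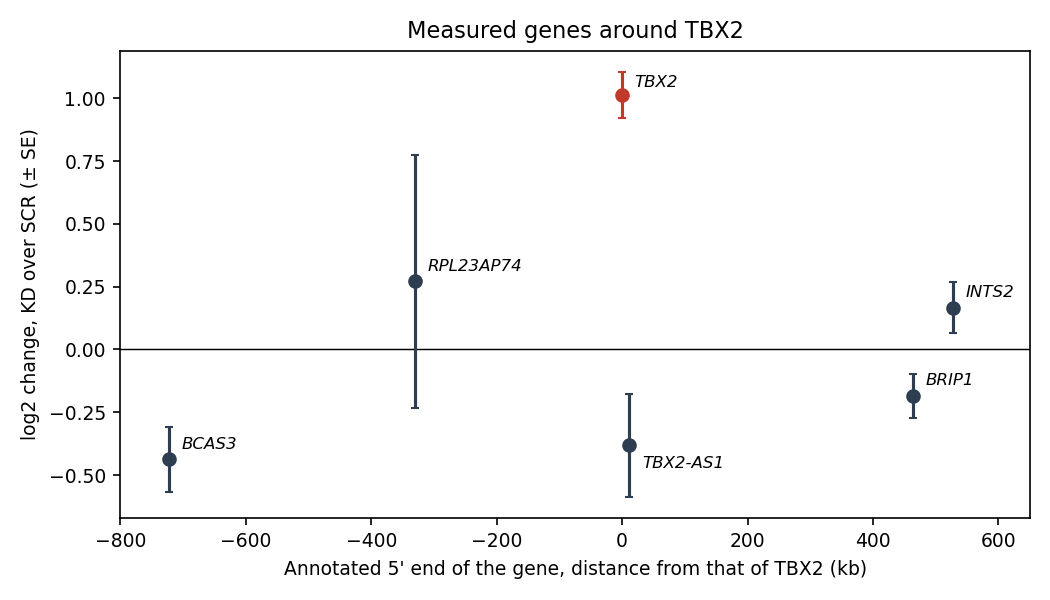
Log2 change, KD over SCR, with SE, of the 5 measured genes annotated within 500 kb of TBX2 and of TBX2 itself (red), against the distance of each annotated 5′ end from that of TBX2 in kb. TBX2 is at 1.01, while BCAS3 (-0.44) and TBX2-AS1 (-0.38) are below 0.

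Genes reported as repressed by TBX2 or TBX3 gave calls in both directions. Of 15 listed genes 8 were tested, 1 rose and 2 fell, with a median log2 change of -0.06, against 15.9% of all tested genes higher, 15.9% lower and a median of 0.00. The 3 called of 8 are near the 31.7% called over all genes. CDKN1A, the cell cycle inhibitor p21 and a repression target of TBX2 in human cells, was at 355 ± 12.0 CPM in KD and 292 ± 16.1 CPM in SCR (SD, n = 3 each). It rose 1.21-fold (edgeR adjusted p = 0.0178), and the call was lost when SCR library 2, SCR library 3, KD library 1 or KD library 3 was left out (adjusted p up to 0.108). CDKN1B, the inhibitor p27 and a target in mouse lung, was at 70.8 ± 3.77 CPM in KD and 86.9 ± 4.09 CPM in SCR and fell 1.22-fold (edgeR adjusted p = 0.0159, n = 3 each). The call of CDKN1B was lost without SCR library 2 (adjusted p = 0.0884), SCR library 3 (0.0504) or KD library 1 (0.0826). CDKN2A, which encodes p16 and ARF, was at 13.9 ± 0.778 CPM in KD and 12.9 ± 0.203 CPM in SCR (edgeR adjusted p = 0.511, n = 3 each).

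NDRG1, a metastasis suppressor that TBX2 represses in human breast cancer cells, moved most in this list. It had 26.1, 30.8 and 24.1 CPM in the KD libraries and 67.5, 99.3 and 147 CPM in the SCR libraries. SCR libraries spread widely, with library 1 the lowest, and KD libraries lay below all of them. NDRG1 fell 3.87-fold (log2 change -1.95 ± 0.21, SE, edgeR adjusted p = 4.49e-05, n = 3 each). The protease gene ADAM10 (log2 change -0.03), the gap junction gene GJA1 (-0.09) and the WNT inhibitor gene SHISA3 (-0.17) did not pass. The other 7 targets, among them CDH1, CST6 and NPPA, were under the low-count filter.

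Cofactors of TBX2 gave 3 rises and 0 falls among 7 tested of 9 listed (median log2 change 0.27 against 0.00 over all genes). Of all tested genes 31.7% were called, 15.9% higher and 15.9% lower, and nothing is read from the cofactors' count. MSX2, a homeobox factor that with Tbx2 and Tbx3 represses Gja1 in the mouse heart, had 33.2, 28.5 and 32.8 CPM in the KD libraries and 14.7, 11.3 and 12.6 CPM in the SCR libraries. All KD libraries were above all SCR libraries, and MSX2 rose 2.45-fold (edgeR adjusted p = 2.22e-05, n = 3 each). HDAC1, a histone deacetylase bound by TBX2, was at 81.1 ± 2.12 CPM in KD and 59.5 ± 4.94 CPM in SCR and rose 1.36-fold (edgeR adjusted p = 0.00182, n = 3 each). TRIM28, a corepressor of zinc finger proteins, was at 568 ± 37.0 CPM in KD and 474 ± 33.7 CPM in SCR and rose 1.20-fold (edgeR adjusted p = 0.0359, n = 3 each). Its call was lost with upper-quartile scaling (adjusted p = 0.0952), with the replicate number as a block (adjusted p = 0.051), and without SCR library 2, KD library 1 or KD library 2 (adjusted p up to 0.195). EGR1, with which TBX2 acts at the NDRG1 promoter, had a log2 change of 0.29 ± 0.12 (SE, edgeR adjusted p = 0.0803) and was called with the block (adjusted p = 0.0323), with no low-count filter (0.0457) and without SCR library 1 (0.033) or KD library 2 (0.0115). MSX1 was at 27.1 ± 3.11 CPM in KD and 25.8 ± 3.59 CPM in SCR (edgeR adjusted p = 0.682, n = 3 each).

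Inputs known to control TBX2 and TBX3 gave 2 rises and 2 falls among 16 tested of 17 listed (median log2 change 0.01), where 15.9% of all genes rose and 15.9% fell, so the list's count is not above that of all genes. The type I BMP receptor gene BMPR1A had 97.9, 88.5 and 111 CPM in the KD libraries and 68.0, 62.4 and 61.1 CPM in the SCR libraries. The groups did not overlap, and BMPR1A rose 1.55-fold (edgeR adjusted p = 0.000387, n = 3 each). BMP7, a BMP ligand, was at 68.9 ± 3.68 CPM in KD and 85.9 ± 3.91 CPM in SCR and fell 1.25-fold (edgeR adjusted p = 0.00971, n = 3 each), a call lost without SCR library 2 (adjusted p = 0.0548). BMP4, which induces Tbx2 and Tbx5 in the dorsal retina of chick and mouse, was at 5.90 ± 0.697 CPM in KD and 5.43 ± 0.689 CPM in SCR (edgeR adjusted p = 0.561, n = 3 each). The 4 SMAD genes had log2 changes of -0.17 to 0.06, and none was called. RARB, a retinoic acid receptor that is also a retinoid-induced gene, was at 2.57 ± 0.602 CPM in KD and 4.55 ± 0.659 CPM in SCR and fell 1.83-fold (edgeR adjusted p = 0.00785, n = 3 each). CTNNB1, the WNT effector beta-catenin, was at 415 ± 13.0 CPM in KD and 341 ± 42.9 CPM in SCR and rose 1.22-fold (edgeR adjusted p = 0.036, n = 3 each). Its call was lost with upper-quartile scaling (adjusted p = 0.0771) and without any single library other than SCR library 1 (adjusted p up to 0.18). MITF, the melanocyte factor upstream of TBX2 in pigment cells, did not pass (log2 change 0.03 ± 0.12, SE).

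**Figure D5:**
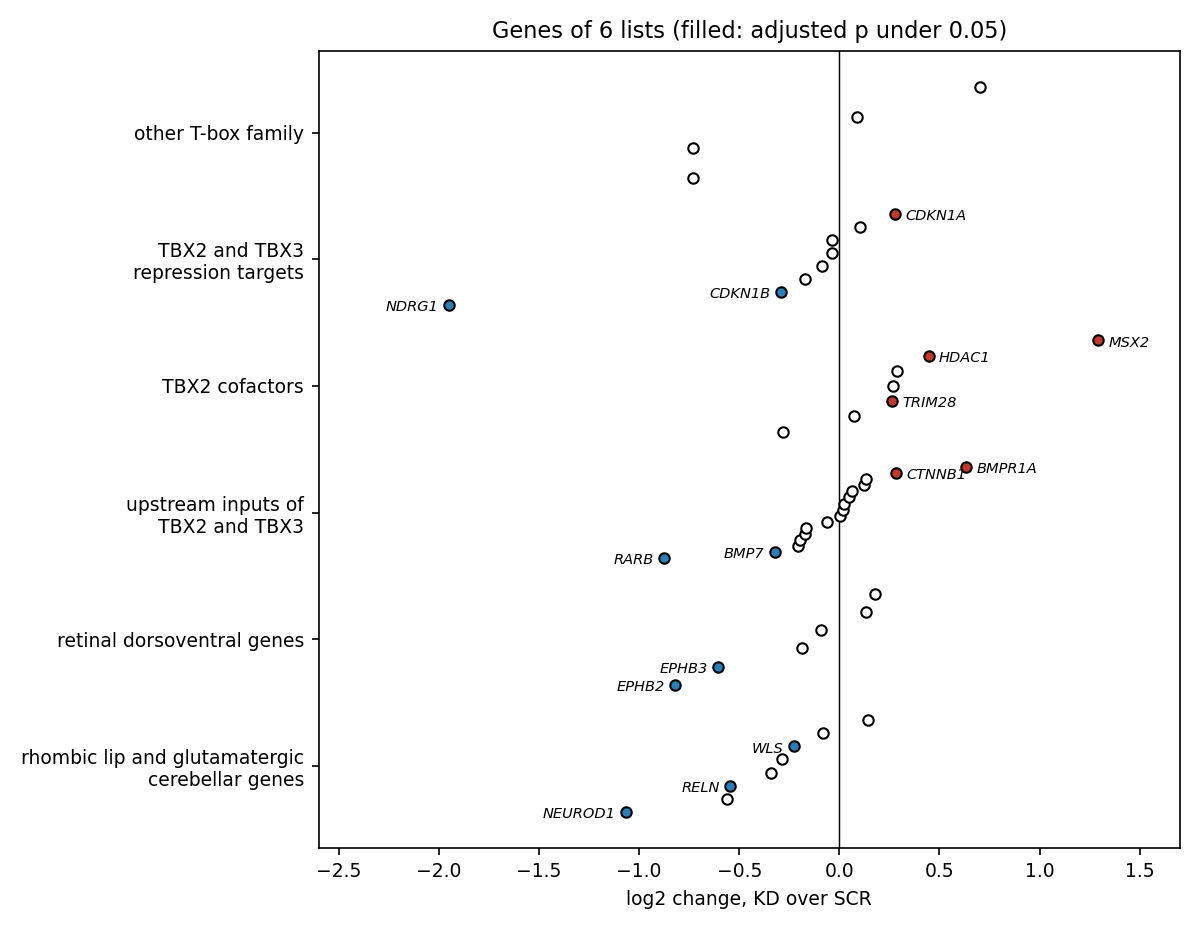
Log2 change, KD over SCR, of the tested genes in 6 lists, a row per list and a point per gene. Filled points are genes with an adjusted p under 0.05 by edgeR's quasi-likelihood test (red higher and blue lower in KD), and open points are the rest; NDRG1 (-1.95) and MSX2 (1.29) lie farthest from 0.

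Genes that pattern the retina from dorsal to ventral, in which TBX2, TBX3 and TBX5 act on the dorsal side, gave 0 rises and 2 falls among 6 tested of 10 listed. The 2 called of 6 are near the 31.7% called over all genes, and the count is no result about the list. Those 2 genes encode ephrin receptors and are listed as ventral. EPHB3 was at 8.03 ± 1.003 CPM in KD and 12.1 ± 1.31 CPM in SCR and fell 1.52-fold (edgeR adjusted p = 0.00494, n = 3 each). EPHB2 was at 1.43 ± 0.306 CPM in KD and 2.45 ± 0.669 CPM in SCR and fell 1.76-fold (edgeR adjusted p = 0.0409, n = 3 each), a call lost with DESeq2 (adjusted p = 0.089) and without any single library other than SCR library 1 (adjusted p up to 0.212). Of the dorsal genes BMP4, EFNB1 and EFNB2 had log2 changes of 0.13, -0.09 and 0.18 and none was called. The ventral gene ALDH1A3, which makes retinoic acid, did not pass (log2 change -0.19, edgeR adjusted p = 0.348). The ventral factor gene VAX2 was under the low-count filter, with 1 count in each KD library and 2, 5 and 12 counts in the SCR libraries.

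TBR1 and EOMES belong to the glutamatergic lineage of the cerebellum, which arises from the rhombic lip. Of 17 other genes of that lineage 8 were tested, 3 fell and 0 rose, with a median log2 change of -0.31. Of all tested genes 15.9% fell and 15.9% rose. The 3 called of 8 are near the 31.7% called over all genes, and the count is no result about the list. ATOH1, LMX1A and BARHL1 had 0 counts in every library. ATOH1 and LMX1A mark progenitors of the lineage and BARHL1 later cells. NEUROD1, a neurogenic factor, had 18.3, 16.7 and 14.7 CPM in the KD libraries and 32.4, 33.6 and 36.9 CPM in the SCR libraries and fell 2.09-fold (edgeR adjusted p = 3.26e-05, n = 3 each). RELN, the secreted guidance protein reelin, was at 10.3 ± 2.28 CPM in KD and 14.6 ± 1.94 CPM in SCR and fell 1.46-fold (edgeR adjusted p = 0.0175, n = 3 each). That call was lost without SCR library 3 (adjusted p = 0.0813) or KD library 2 (0.0763). WLS, which carries WNT proteins to the cell surface, was at 314 ± 3.24 CPM in KD and 367 ± 15.2 CPM in SCR and fell 1.17-fold (edgeR adjusted p = 0.0388, n = 3 each). Its call was lost with the block (adjusted p = 0.0697), with no low-count filter (0.0621), and without SCR library 2, SCR library 3, KD library 1 or KD library 3 (adjusted p up to 0.138). MEIS2, a homeobox factor, did not pass (log2 change -0.56, edgeR adjusted p = 0.155). ZIC1, a factor of granule cell precursors, was at 65.0 ± 3.00 CPM in KD and 58.8 ± 1.88 CPM in SCR (edgeR adjusted p = 0.205, n = 3 each).

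Genes whose log2 CPM ran most like that of TBX2 over the 6 libraries were listed as a description. Among 10844 genes compared, 545 had a Pearson r above 0.95 and 529 one below -0.95. The 6 points share their split into 2 groups, in which 31.7% of genes were called. The highest were MYBBP1A (r = 0.998), a nucleolar MYB-binding protein, DNAJB6 (0.998), a co-chaperone, SRSF4 (0.998), a splicing factor, KRI1 (0.997), a ribosome assembly factor, and DIMT1 (0.997), an rRNA methyltransferase. MYBBP1A had 94.0, 88.9 and 88.4 CPM in the KD libraries and 61.1, 53.3 and 58.6 CPM in the SCR libraries, in the same order of libraries as TBX2. Among the genes running most opposite to TBX2 were SMARCA2 (r = -0.998), a chromatin remodelling ATPase, and KCNAB2 (-0.998), a potassium channel subunit. Among the members, r with TBX2 was 0.89 for TBX20, 0.70 for TBX1, 0.35 for TBX3, -0.38 for TBX18 and -0.90 for TBR1.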

How the data were processed

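Whole-number gene counts of 6 libraries were the unit used. Per the submitters' processing notes, the authors used RSEM, STAR 2.7.9a, Trim Galore 0.6.4 and the build GRCh38.p13; the deposited counts may be rounded RSEM estimates. Annotation, RSEM version and strand setting: not given in the sources used here. The kit, per the labels, was TruSeq Stranded mRNA. Each deposited file held 60708 gene rows; 44 pseudoautosomal copies were added to their X copies.

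KD was tested against SCR in R 4.3.3 with edgeR 4.0.16: filterByExpr, TMM scaling, glmQLFit and glmQLFTest with no covariate, 2-sided, Benjamini-Hochberg adjustment over 14673 genes, threshold 0.05. The SE was taken as |log2 change| / √F. The fit was tested on simulated data. Coordinates and exon lengths are from GENCODE release 29 (GRCh38). Members and lists were chosen with earlier results of these data known, and no set was tested. Genes named were all members, measured genes within 500 kb of TBX2 or overlapping a member, up to 4 genes per list with the smallest adjusted p, with other list genes added after their values were seen, and the 5 most and 3 least like TBX2 in Pearson r (mean of at least 5 CPM); 1 of these, and 1 gene of a list, are not reported here. Alternatives were RLE and upper-quartile scaling, no filter or 1 CPM in 3 libraries, DESeq2 1.42.0, limma-voom (limma 3.58.1), a replicate block, an adjusted p of 0.01, Spearman rho and leaving out each library. Same-numbered KD and SCR libraries did not deviate together (correlations of 0.03, 0.10 and -0.03 for numbers 1 to 3). Counts of replicates differed beyond sampling noise (chi-square over its degrees of freedom, 2.81 to 16.5). Figures were drawn with matplotlib 3.10.9.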

Additional observations from a re-analysis of the deposited data

How the results depend on the processing

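The log2 change of TBX2 lay between 0.96 and 1.07 under all alternatives run. Leaving out single libraries gave 2704 to 5114 genes called over all genes in place of 4657 (2704 without SCR library 2 and 2891 without SCR library 3), and 0 to 1 for the other T-box family in place of 0. For repression targets of TBX2 and TBX3 it gave 1 to 3 in place of 3, for cofactors 2 to 5 in place of 3, for upstream inputs 2 to 4 in place of 4, for retinal dorsoventral genes 1 to 2 in place of 2, and for rhombic lip genes 1 to 3 in place of 3. An adjusted p under 0.01 left 2459 genes over all, 1 repression target, 1 retinal and 1 rhombic lip gene. Cofactors called were 5 with no low-count filter, and DESeq2 called 1 retinal gene. With upper-quartile scaling 4576 genes were called, 1773 higher and 2803 lower, in place of 2328 and 2329. The replicate block gave 4742 calls; the samples share only a number (correlations of deviations of 0.03, 0.10 and -0.03), and among named genes it changed the calls of TRIM28, EGR1 and WLS given above. Directions of genes not called turned for MGA without KD library 3 (range over left-out libraries -0.046 to 0.22), SLC4A10 without KD library 1 (-0.43 to 0.050) and RPL23AP74 with limma-voom (-0.16) and without KD library 2 (-0.39 to 0.84). TBX3 turned without KD library 1 (-0.02), and TBX18 without KD library 1 (0.01) or 2 (0.02). The cause was not tested. With Spearman rho, 4 of the 5 genes most like TBX2 had a rho of 1, as had 99 genes in all. The low counts of TBX20, TBX4 and EOMES limit what can be said of them, and KD library 1, with the fewest counts, limits all low genes.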
